A study of Mus musculus with 12 samples.

Results

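The 44 collagen genes of the mouse were followed through the RNA-sequencing counts of the medial prefrontal cortex (PFC). They are the genes of the deposited table whose symbol is Col, a chain number, the letter a and a further number, and they were 44 of 41388 rows. By the type of structure that their protein chains form, 11 encode chains of fibrillar collagens, 8 encode chains of basement membrane collagens and 25 encode chains of other kinds. The tissue came from male Swiss Webster mice aged 10 weeks, fed the same autoclaved diet, in 3 groups of 4 libraries each. CON mice were conventionally colonized, GF mice were germ-free and were kept in gnotobiotic isolators, and exGF mice were germ-free until postnatal day 21, when they left the isolators for the standard unit of the CON mice and were colonized by microbes of those surroundings. Each library was made from RNA pooled from 2 to 3 animals of a group, so the SD given here is a spread between pools.

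Collagens are the structural proteins of the extracellular matrix. Each molecule is a triple helix, and the tight winding requires the smallest amino acid, glycine, at a fixed place in every repeat of the chain. Fibrillar collagens line up side by side into fibres of high tensile strength, whereas type IV collagen joins end to end into the sheet of the basement membrane. In the brain, fibrillar collagens are known mainly from the meninges and from the perivascular fibroblasts of larger vessels, type IV collagen from the basement membrane around vessels, and a few transmembrane collagens from neurons.

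The repeat can be read in the genes themselves. A codon that starts with GG encodes glycine, and in the repeat it stands at the start of each unit of 9 bases. The longest uninterrupted run of such units in the coding sequence was 339 in Col1a2, 338 in Col1a1, 66 in Col4a2 and 43 in Col23a1. Among the 11 fibrillar genes the longest run was 337 to 344 units in all but Col24a1 (216) and Col27a1 (217). The 6 type IV genes had longest runs of 39 to 66 units, spread over 16 to 18 runs of at least 10. A stretch of 60 bases from the start of the longest run is shown for the chains with the lowest p-values in GF and for a basement membrane chain, from the longest coding sequence of each gene in the GRCm38 annotation, with the glycine codons in capitals.
Col1a1, codons 168 to 187: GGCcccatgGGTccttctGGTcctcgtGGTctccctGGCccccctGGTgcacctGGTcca
Col1a2, codons 97 to 116: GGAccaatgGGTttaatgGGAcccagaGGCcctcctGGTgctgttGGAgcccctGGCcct
Col23a1, codons 110 to 129: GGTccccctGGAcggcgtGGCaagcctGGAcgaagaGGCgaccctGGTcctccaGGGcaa
Col4a2, codons 777 to 796: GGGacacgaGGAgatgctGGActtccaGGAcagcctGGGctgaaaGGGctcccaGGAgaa
The 4 stretches have the same spacing of glycine codons and differ in the bases between them.

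Counts on genes ran from 13280926 (GF replicate 1) to 29134760 (CON replicate 3) per library, and between libraries of the same group the chi-square per gene averaged 9.26 to 40.2, against 1 for sampling alone. CPM are counts scaled to a common library size. The summed level of 10 markers of cortical neurons was 10500 to 12000 CPM in CON, 12300 to 13100 in GF and 11200 to 12700 in exGF. Every GF library was thus above every CON library. All 10 had a log2 fold change above 0 in GF relative to CON (51.7% of all genes tested), with a median of 0.13. Their part in the collagen values was not tested. Markers of neighbouring tissue were uneven. The 10 markers of the striatum summed to 455 CPM in CON replicate 2 and 426 CPM in exGF library GFR4 against 205 to 276 CPM in the others. The 9 markers of the choroid plexus summed to 16.3 CPM in GF replicate 1 against at most 8.2 CPM elsewhere. Of this sum, Ttr alone gave 9.29 CPM, against at most 2.58 CPM in another library, and 5 of the 9 markers were under 1 CPM in every library. The exGF libraries are named GFR1 to GFR4 as in the deposited table, since these numbers could not be tied to single samples.

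The collagens covered a wide range of levels. Per kilobase of merged exons, the highest mean over the 12 libraries was that of Col6a1, a chain of the beaded filaments of type VI collagen, at 15.5 ± 5.14 CPM per kilobase (SD, n = 12). It was followed by the main basement membrane chains Col4a2 (11.4 ± 2.52) and Col4a1 (7.67 ± 1.24) and by the neuronal transmembrane collagen Col25a1 (6.76 ± 1.12). Within a library, Col6a1 was above Col4a2 in 11 of 12 libraries, Col4a2 above Col4a1 in 12 of 12 and Col4a1 above Col25a1 in 8 of 12. The last of these pairs differed by less than the SD of either gene. The order depends on the length used. With the length of the transcript that has the longest coding sequence, 2624 in place of 12947 bases, Col25a1 came first at 33.4 CPM per kilobase, ahead of Col6a1 at 16.6. The highest fibrillar chain was Col11a2 at 2.58 CPM per kilobase of merged exons, or Col1a2 at 4.84 CPM per kilobase of that transcript. The lowest were Col2a1, the main chain of cartilage fibrils, Col10a1, of growth plate cartilage, and Col17a1, of the anchoring complexes of skin. They had 2 to 15, 0 to 15 and 4 to 19 counts per library and did not pass the filter on low counts, so 41 of the 44 genes were tested in each comparison.

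**Figure D1:**
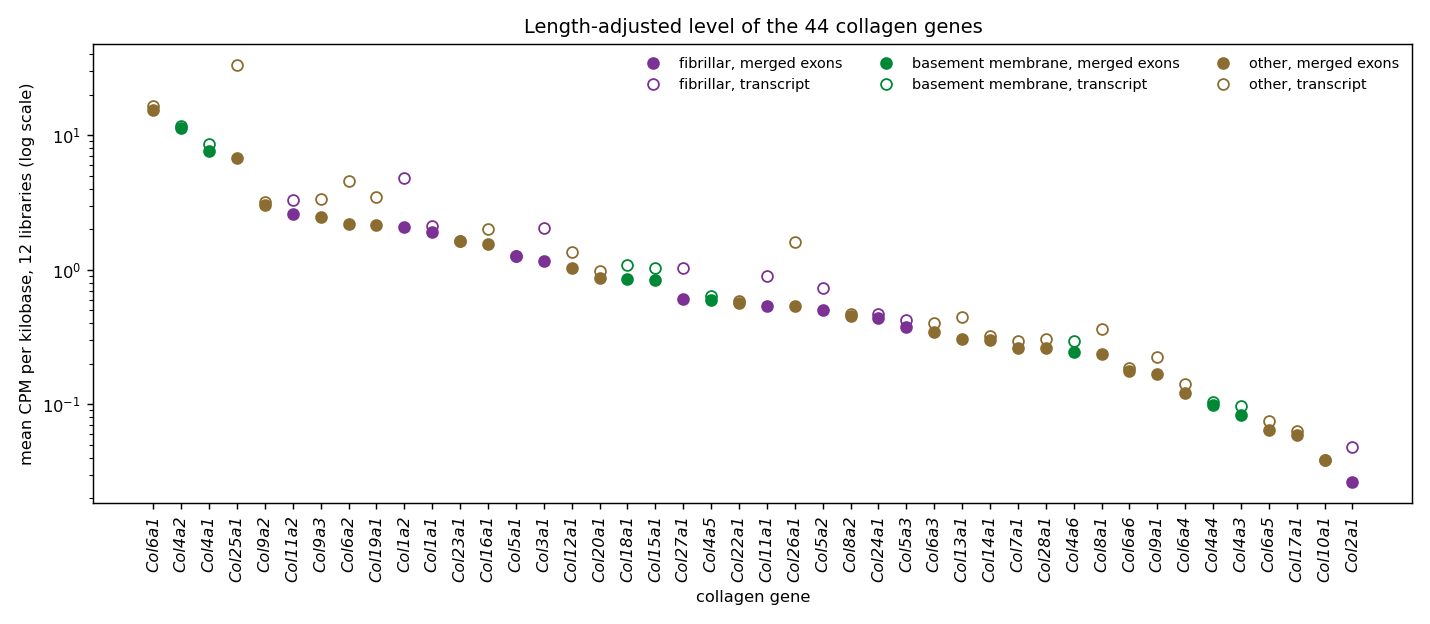
Mean CPM per kilobase of the 44 collagen genes over 12 libraries, on a log axis, in order of the level per kilobase of merged exons (filled points) with the level per kilobase of the longest-coding transcript (open points), coloured by class. The levels run from 15.5 for Col6a1 to 0.0265 for Col2a1, and Col25a1 moves most with the choice of length, from 6.76 to 33.4.

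In GF mice Col1a2, the second chain of type I collagen, fell to 0.621 times its CON level, and it was the only collagen gene that passed the test. Calls were made by edgeR (quasi-likelihood test) at a p under 0.1 after Benjamini-Hochberg adjustment over all genes tested. Collagen genes called lower in GF were 1 of 41 against 0.135% of the 15542 genes tested, and those called higher were 0 of 41 against 0.116%. Below that threshold most collagens leaned the same way. The fitted log2 fold change was below 0 for 32 of 41 collagen genes, against 48.3% of all genes tested, and its median was -0.28 against 0.01 for all genes. At an unadjusted edgeR p under 0.05, 12 collagen genes were lower in GF (background 3.94%) and 1, Col4a4, was higher (background 4.75%). For 4 of them (Col1a1, Col1a2, Col4a5 and Col23a1) every GF library lay below every CON library, which held for 2.55% of all genes tested. By class, 7 of 10 tested fibrillar genes (median -0.34), 5 of 8 basement membrane genes (median -0.14) and 20 of 23 other genes (median -0.43) were below 0, and the share of the basement membrane genes was near the background. In tissue RNA, fewer cells of a type and less RNA per cell cannot be told apart. Without GF replicate 2, the count of called collagens was 2 in place of 1, with Col23a1 added (adjusted p = 0.0955 by edgeR).

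**Figure D2:**
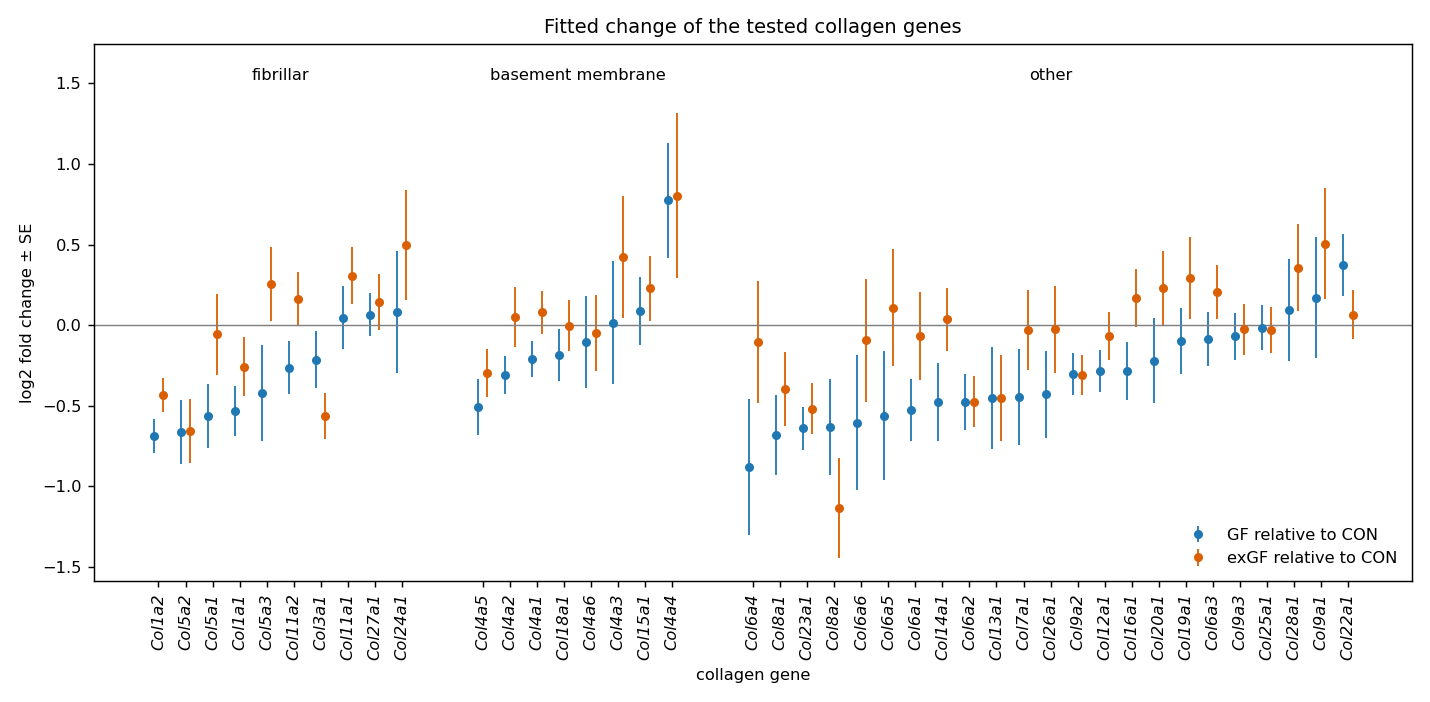
Fitted log2 fold change ± SE of the 41 tested collagen genes in GF (blue) and exGF (orange) relative to CON, 4 libraries per group, by class and ordered within each class by the GF value. In GF 32 of the 41 points lie below 0 and in exGF 22, and both series share the CON libraries.

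The type I chains form the most abundant fibril of the body, with Col1a1 giving the first and Col1a2 (chromosome 6, 4504814 to 4541544, GRCm38) the second chain. Col1a2 was at 36.0, 35.5, 29.5 and 30.4 CPM in the CON libraries, at 19.8, 18.2, 21.2 and 22.4 CPM in GF and at 21.5, 25.6, 25.8 and 24.7 CPM in exGF. All GF and all exGF libraries lay below all CON libraries, and GF and exGF overlapped. The GF change was -0.69 on the log2 scale (SE 0.11), with a Benjamini-Hochberg adjusted p of 0.0168 in edgeR's quasi-likelihood fit. In exGF the value was -0.43 (SE 0.11), and the adjusted p of 0.402 by the same edgeR test missed the threshold. The GF call was made with each of the 8 libraries left out in turn and in the other 8 fits, with log2 fold changes of -0.74 to -0.63 and adjusted p-values of 2.73e-06 to 0.0774. The exGF call was made by DESeq2 (adjusted p = 0.0739) and by none of the other 14 fits.

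Col1a1 had 18.8, 16.9, 11.4 and 12.6 CPM in CON, 9.59, 10.4, 10.4 and 10.8 CPM in GF, and 9.32, 14.8, 14.2 and 11.7 CPM in exGF. The GF libraries were close to each other and all below CON, while the CON libraries fell into a higher and a lower pair. The log2 fold change in GF was -0.53 (SE 0.16, adjusted p = 0.287 by edgeR), and in exGF -0.26 (SE 0.18, adjusted p = 0.963 by edgeR). The exGF value was -0.12 without CON replicate 1 and -0.13 without GFR1. Both type I chains had GF values below CON, and of them Col1a2 passed the test. The difference between the chains themselves is given by their ratio within a library, described with the other partner chains.

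The promoter of Col1a2 is shown because its gene is the one called. RefSeq's window on GRCm38.p6, chr6:4505368-4505667 on the plus strand, runs from 250 bases before to 50 after the RefSeq start. It lies inside the gene as given above, which begins at 4504814, so the 2 annotations place the start differently. Capitals mark the letters CCAAT and GGGCGG on either strand.
Col1a2: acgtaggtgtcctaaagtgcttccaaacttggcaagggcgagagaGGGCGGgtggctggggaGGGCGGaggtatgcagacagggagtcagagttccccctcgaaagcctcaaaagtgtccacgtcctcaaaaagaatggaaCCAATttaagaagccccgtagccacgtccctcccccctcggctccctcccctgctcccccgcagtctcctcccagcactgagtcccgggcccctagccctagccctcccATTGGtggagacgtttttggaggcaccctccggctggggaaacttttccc
Col1a2's window held CCAAT 2 times and GGGCGG 2 times and did not hold TATAAA. A promoter entry was found for 35 of the 44 collagen genes, with 38 entries. CCAAT stood in 34.2% of them against 37.4% of all 32851 RefSeq promoter windows of this length, TATAAA in 13.2% against 13.6%, and GGGCGG in 60.5% against 35.7%, each on either strand. The matches in this window do not overlap, and a match is a description of the letters only.

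Type III collagen, the product of Col3a1, accompanies type I in soft tissue and around vessels. Col3a1 was at 16.9, 11.8, 13.5 and 11.9 CPM in CON, 8.85, 9.53, 15.4 and 12.8 CPM in GF, and 9.77, 7.86, 10.7 and 8.47 CPM in exGF. Every exGF library lay below every CON library, as for Col1a2. The GF libraries overlapped both CON and exGF. On the log2 scale Col3a1 differed from CON by -0.21 (SE 0.18, adjusted p = 0.776 by edgeR) in GF and -0.56 (SE 0.14, adjusted p = 0.458 by edgeR) in exGF. The GF value was -0.09 without CON replicate 1, -0.12 without GF replicate 1 or 2 and -0.38 without GF replicate 3.

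The type V chains start and thin the fibrils of type I. Col5a2 had mean levels of 6.39 ± 1.21, 4.04 ± 0.954 and 4.05 ± 0.956 CPM in CON, GF and exGF (SD, n = 4), with groups that overlapped. Its log2 fold changes of -0.67 (SE 0.20) and -0.66 (SE 0.20) had adjusted p-values of 0.305 and 0.61 by edgeR. Col5a1 was at 12.1 ± 3.02, 8.23 ± 1.93 and 11.7 ± 4.35 CPM in CON, GF and exGF. The third chain, Col5a3, had 2.6 ± 0.715, 1.99 ± 0.86 and 3.12 ± 0.561 CPM in the same order. None of these chains passed the test, and in exGF Col5a2 alone of them had a mean near that of GF.

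The remaining fibrillar genes showed no common lean in GF. Col11a2, of the thin fibrils of cartilage and also known from neural tissue, had means of 18.0 ± 2.45, 15.1 ± 3.82 and 20.2 ± 4.86 CPM in CON, GF and exGF. Col11a1, its partner, had 6.23 ± 1.32, 6.51 ± 1.5 and 7.77 ± 1.34 CPM. The minor fibrillar genes Col24a1 and Col27a1 had log2 fold changes of 0.08 (SE 0.38) and 0.06 (SE 0.13) in GF. Col2a1 stayed at or below 0.64 CPM in every library.

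**Figure D3:**
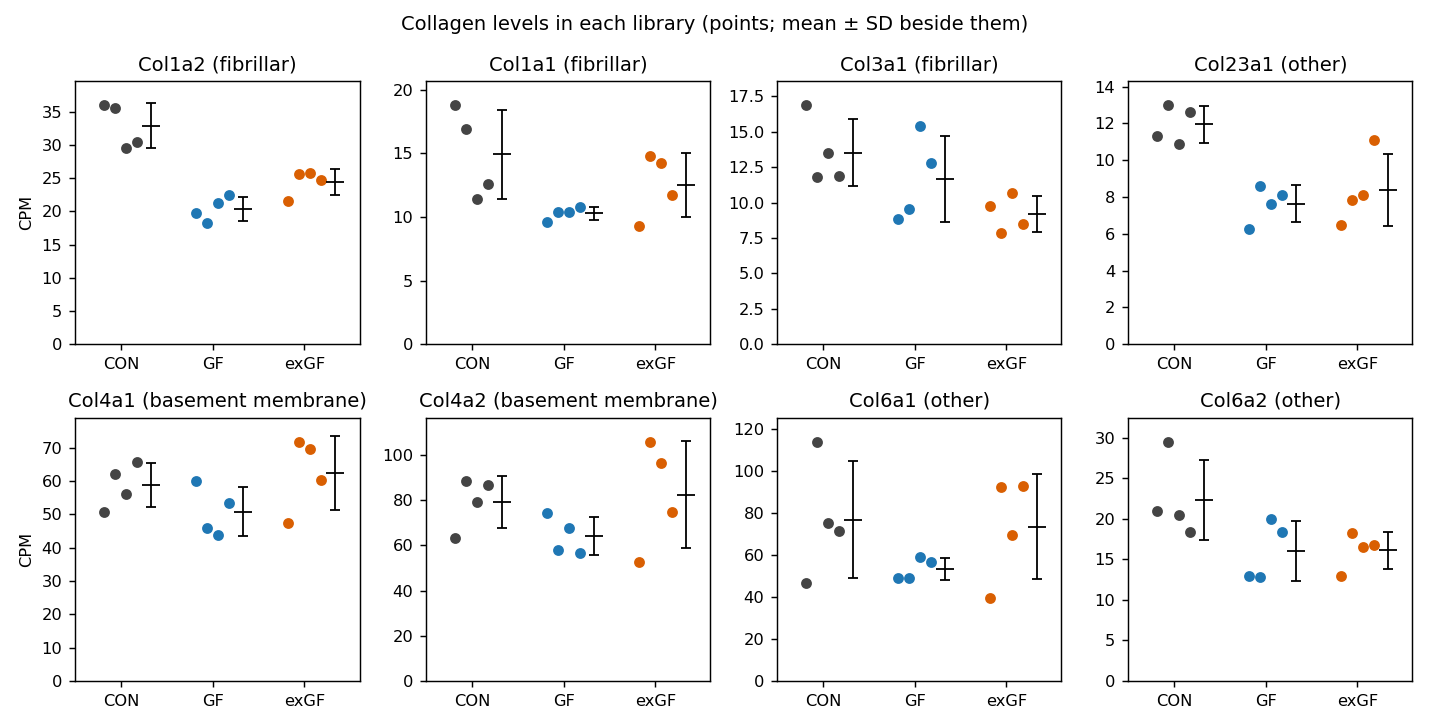
CPM of 8 collagen genes in each of the 12 libraries (points), with the mean ± SD of each group of 4 beside them. Col1a2 is at 29.5 to 36.0 CPM in CON and 18.2 to 22.4 CPM in GF, whereas for Col4a1, Col4a2, Col6a1 and Col6a2 CON and GF overlap and the exGF library GFR1 is the lowest of its group.

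The main basement membrane collagens were at high levels in all groups. Col4a1 (chromosome 8, 11198423 to 11312826) and Col4a2 (11312805 to 11449287) encode the chains of the ubiquitous type IV network, and they lie head to head with 22 shared bases at their starts. Col4a2 was at 63.2, 88.5, 79.3 and 86.6 CPM in CON, 74.4, 57.9, 67.7 and 56.5 CPM in GF, and 52.8, 106, 96.5 and 74.7 CPM in exGF. Col4a1 had 50.8, 62.2, 56.0 and 65.7 CPM in CON, 60.1, 45.9, 43.8 and 53.5 CPM in GF, and 47.5, 71.8, 69.6 and 60.3 CPM in exGF. The groups overlapped for both genes, and both were at their lowest exGF level in GFR1. The log2 fold changes in GF were -0.31 (SE 0.12) for Col4a2 and -0.21 (SE 0.11) for Col4a1, with adjusted p-values of 0.451 and 0.636 by edgeR. In exGF they were 0.05 (SE 0.19) and 0.08 (SE 0.13), and that of Col4a2 changed sign with the library left out, from -0.09 without GFR2 to 0.22 without GFR1. That of Col4a1 lay between 0.01 without GFR2 and 0.20 without GFR1.

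The shared start of this pair is shown as RefSeq's window of Col4a2 on GRCm38.p6, chr8:11312555-11312854 on the plus strand, with CCAAT and GGGCGG of either strand in capitals. Its last 78 bases are also part of the window of Col4a1 on the other strand.
Col4a2: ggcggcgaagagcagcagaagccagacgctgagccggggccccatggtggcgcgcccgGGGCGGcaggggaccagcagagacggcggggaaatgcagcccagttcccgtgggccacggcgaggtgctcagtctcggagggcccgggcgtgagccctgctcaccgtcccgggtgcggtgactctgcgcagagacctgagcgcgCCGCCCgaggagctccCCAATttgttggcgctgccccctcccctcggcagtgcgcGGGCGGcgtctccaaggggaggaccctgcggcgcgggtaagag
The window held GGGCGG 3 times and CCAAT 1 time.

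The other type IV chains, which form the specialised networks of kidney, eye and ear, were far lower. Col4a5 on the X chromosome was at 5.0, 4.05, 4.91 and 5.10 CPM in CON, 2.90, 3.80, 3.76 and 2.86 CPM in GF, and 3.40, 4.19, 3.92 and 4.08 CPM in exGF. Every GF library lay below every CON library. The difference of -0.51 on the log2 scale (SE 0.17) missed the threshold (adjusted p = 0.398 by edgeR). Its neighbour and partner Col4a6 had means of 2.03 ± 0.331, 1.88 ± 0.755 and 1.98 ± 0.467 CPM. Col4a3 and Col4a4, another head-to-head pair, had at most 1.52 and 1.94 CPM in a library. Col4a4 was the only collagen gene with an unadjusted edgeR p under 0.05 towards a higher level in GF, at 0.706 ± 0.294 CPM in CON and 1.21 ± 0.364 CPM in GF (adjusted p = 0.568), on 4 to 55 counts per library. Of the exons of Col4a3, 5.65% overlap a transcript of the opposite strand, from which counting without strand cannot tell it.

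Collagens XV and XVIII link basement membranes to the matrix below and carry antiangiogenic fragments at their ends. Col15a1 had 4.95 ± 0.942, 5.30 ± 1.46 and 5.81 ± 1.49 CPM in CON, GF and exGF, and Col18a1 had 6.26 ± 0.91, 5.53 ± 0.753 and 6.29 ± 1.08 CPM. For both, the differences between groups were smaller than the spread between pools.

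The chains of type VI collagen are found around vessels, nerves and muscle fibres. Col6a1 was at 46.8, 114, 75.3 and 71.4 CPM in CON, 48.9, 49, 59.1 and 56.5 CPM in GF, and 39.6, 92.5, 69.4 and 92.7 CPM in exGF. CON replicate 2, the library with the highest striatal markers, was the highest of CON. GFR4, with striatal markers at 426 CPM, was the highest of exGF, but GFR2, with these markers at 209 CPM, was nearly level with it. The part of the striatal markers in these levels was not tested. In GF the log2 difference was -0.52 (SE 0.19, adjusted p = 0.426 by edgeR), and -0.27 without CON replicate 2.

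Col6a2 was at 20.9, 29.5, 20.5 and 18.4 CPM in CON, 12.9, 12.8, 20 and 18.4 CPM in GF, and 12.9, 18.2, 16.5 and 16.8 CPM in exGF. All exGF libraries lay below all CON libraries. Its log2 fold changes were -0.48 (SE 0.17) in GF and -0.48 (SE 0.16) in exGF, with adjusted p-values of 0.424 and 0.698 by edgeR. Without CON replicate 2 both were -0.31. The third main chain, Col6a3, was at 3.96 ± 0.333, 3.72 ± 0.423 and 4.59 ± 0.789 CPM in CON, GF and exGF. The alternative chains Col6a4, Col6a5 and Col6a6 had at most 2.34, 1.04 and 3.01 CPM in a library, and their log2 fold changes in GF were -0.88 (SE 0.42), -0.56 (SE 0.40) and -0.60 (SE 0.42).

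The transmembrane collagens differed from each other. Col23a1 (chromosome 11, 51289920 to 51583918) was at 11.3, 13.0, 10.9 and 12.6 CPM in CON, 6.24, 8.59, 7.62 and 8.09 CPM in GF, and 6.46, 7.81, 8.09 and 11.1 CPM in exGF. All GF libraries lay below all CON libraries, and in exGF GFR4 alone reached into the CON range. In GF its log2 difference from CON was -0.64 (SE 0.13), and the Benjamini-Hochberg adjusted p of 0.107 in edgeR was just over the threshold. It was called in 5 of 16 other fits, among them DESeq2 (adjusted p = 0.00352) and the fit without a filter on low counts (adjusted p = 0.017). In exGF the log2 fold change was -0.52 (SE 0.16, adjusted p = 0.627 by edgeR).

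Col25a1, whose shed ectodomain binds amyloid beta and which is made by neurons, was at 88.3 ± 13.4, 87.3 ± 17.3 and 87.0 ± 17.2 CPM in CON, GF and exGF. Its log2 fold changes were -0.02 (SE 0.14) and -0.03 (SE 0.14). Col13a1, known from the neuromuscular junction, had 1.72 ± 0.434, 1.25 ± 0.512 and 1.26 ± 0.283 CPM. Col17a1 was at most 0.805 CPM in a library.

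Collagens with interrupted helices sit on the surface of fibrils, and most of them were at low to middle levels. In type IX, Col9a2 was at 10.8, 12.1, 10.5 and 9.56 CPM in CON, 8.92, 7.56, 8.48 and 9.85 CPM in GF, and 8.12, 7.90, 9.32 and 9.50 CPM in exGF. Every exGF library was below every CON library, by a small step between 9.50 and 9.56 CPM. The log2 fold changes were -0.30 (SE 0.13) and -0.31 (SE 0.12), with adjusted p-values of 0.53 and 0.84 by edgeR. Its partner Col9a3 was level, at 9.79 ± 1.66, 9.36 ± 1.06 and 9.65 ± 1.59 CPM, but 6.07% of its exons overlap Tcfl5 on the opposite strand. The third chain, Col9a1, had at most 1.42 CPM in a library.

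Col12a1 and Col14a1, which decorate type I fibrils, had log2 fold changes of -0.28 (SE 0.13) and -0.48 (SE 0.24) in GF, and of -0.06 (SE 0.15) and 0.04 (SE 0.19) in exGF. Col16a1, Col19a1 and Col20a1 had values of -0.28, -0.10 and -0.22 in GF and of 0.17, 0.29 and 0.23 in exGF. Col22a1, of tissue junctions, was above 0 in GF at 0.37 (SE 0.19, adjusted p = 0.613 by edgeR). These genes were on the low side in GF, Col22a1 excepted, and near or above CON in exGF, and none was called.

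Type VIII collagen forms the hexagonal sheets below endothelia. Col8a2 was at 2.34, 3.92, 3.68 and 1.79 CPM in CON, 1.64, 1.48, 2.85 and 1.60 CPM in GF, and 1.16, 0.82, 1.98 and 1.36 CPM in exGF. Its log2 fold change in exGF of -1.14 (SE 0.31) was the lowest of the 41 collagen genes, yet the groups overlapped and the adjusted p was 0.523 by edgeR. Col8a1 had 2.34 ± 0.491, 1.45 ± 0.27 and 1.80 ± 0.331 CPM in CON, GF and exGF. The chains of type VIII were on the low side in both groups, on 16 to 108 counts per library.

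Of the others, Col7a1, of the anchoring fibrils, had a log2 fold change of -0.45 (SE 0.30) in GF and -0.03 (SE 0.25) in exGF. Col26a1 had -0.43 (SE 0.27) and -0.03 (SE 0.27), and Col28a1, known from peripheral nerve, had 0.10 (SE 0.32) and 0.36 (SE 0.27). Col10a1 was at most 0.671 CPM and had 35 counts over the 12 libraries.

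In exGF the signs of the collagen fold changes were split around CON, whereas the 7 genes with an unadjusted edgeR p under 0.05 were all lower. EdgeR called none of 41, against 0.0443% of 15813 tested genes called lower and 0.0253% called higher, and DESeq2 called 1 (Col1a2) and limma-voom 0. The log2 fold change was below 0 for 22 of 41 (52.1% of all genes tested), with a median of -0.02. At an unadjusted edgeR p under 0.05, 7 were lower (background 2.87%) and 0 higher. These were Col1a2, Col3a1, Col5a2, Col6a2, Col8a2, Col9a2 and Col23a1. For 4 of them (Col1a2, Col3a1, Col6a2 and Col9a2) every exGF library lay below every CON library (background 1.52%). By class, 5 of 10 fibrillar, 3 of 8 basement membrane and 14 of 23 other genes were below 0.

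Between exGF and GF, the question was whether colonization from weaning on moved the collagens from the germ-free level. No collagen gene was called by edgeR, DESeq2 or limma-voom, and edgeR called 0.0% of 15569 tested genes higher and 0.0% lower. The log2 fold change of exGF relative to GF was above 0 for 37 of 41 (48.7% of all genes tested), with a median of 0.28. Those below 0 were Col3a1, Col8a2, Col22a1 and Col25a1. At an unadjusted edgeR p under 0.05, 7 were higher in exGF (background 3.3%) and 0 lower: Col1a2, Col4a1, Col5a3, Col6a1, Col6a4, Col11a2 and Col16a1. Col6a4 was at 0.595, 0.85, 0.644 and 0.605 CPM in GF and at 1.16, 1.12, 1.09 and 1.33 CPM in exGF. It was the 1 tested collagen gene for which every exGF library lay above every GF library (background 1.77%), with a log2 fold change of 0.78 (SE 0.28, adjusted p = 0.736 by edgeR). Its GF libraries had only 8 to 19 counts, and its CON libraries, at 0.495 to 2.34 CPM, overlapped both groups. The count below 0 depended on single libraries, as it went from 4 to 8 without GF replicate 1, 10 without GF replicate 2, 7 without GF replicate 3, 9 without GFR2, 10 without GFR3 and 8 without GFR4. This comparison uses the same GF libraries as the comparison with CON, so the lean of one is not independent of that of the other.

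Summed over all 44 genes, the collagens were at 502, 624, 560 and 605 CPM in CON, 489, 452, 468 and 476 CPM in GF, and 442, 644, 609 and 525 CPM in exGF. The GF libraries were all below CON and close together, and exGF spanned both ranges. Of the classes, the fibrillar sum had the same pattern, with 110 to 126, 76.1 to 96.9 and 82.4 to 125 CPM in CON, GF and exGF. The basement membrane sum overlapped between CON (132 to 174 CPM) and GF (119 to 152 CPM). So did the sum of the 25 other genes (253 to 329 and 240 to 259 CPM). The share of read pairs aligned to several places was set beside these sums. In each group the library with the largest share had the lowest collagen sum: CON replicate 1 (17.3%), GF replicate 2 (19.2%) and GFR1 (17.7%), where the range over all libraries was 13 to 19.2%. CON replicate 2, with 17.2%, had the highest CON sum, and GFR3, with the lowest share, had a lower sum than GFR2, with 15.7%. The part of this share in the collagen sums was not tested. With this share as a covariate in the edgeR fit, 33 of 41 collagens were below 0 in GF and Col1a2 (log2 -0.72, adjusted p = 0.0272) and Col23a1 (log2 -0.73, adjusted p = 0.042) were called, and in exGF 22 were below 0 and none was called.

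**Figure D4:**
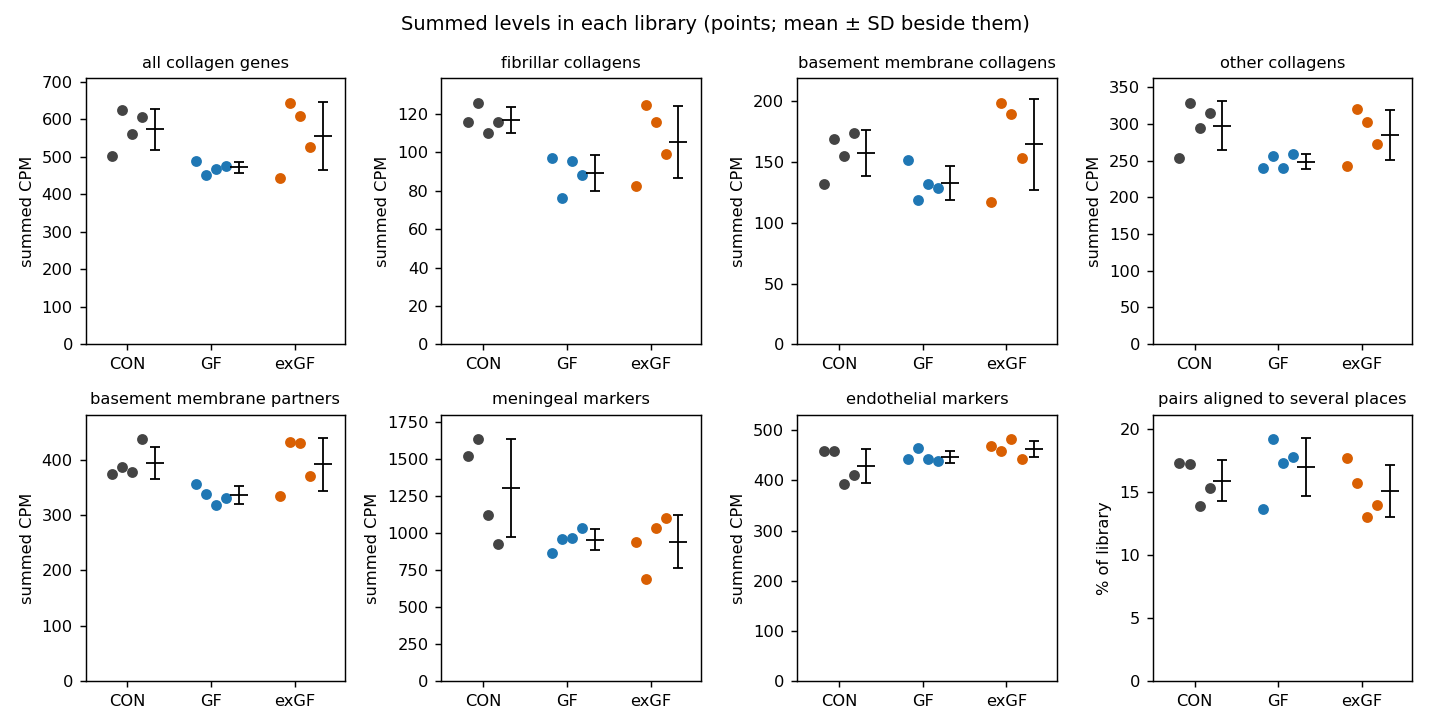
Summed CPM of all collagens, of each class, of basement membrane partners and of meningeal and endothelial markers, and the share of pairs aligned to several places, in each of the 12 libraries (points) with the mean ± SD of each group of 4 beside them. Collagen sums are 502 to 624 CPM in CON and 452 to 489 CPM in GF, meningeal markers are 927 to 1630 CPM in CON and 861 to 1030 CPM in GF, most of it from Ptgds, and endothelial markers overlap in all groups.

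Chains that assemble together, or whose genes are neighbours, were compared by the ratio of their counts within a library, which does not depend on the normalization. The ratio of Col1a1 to Col1a2 was 0.522, 0.477, 0.386 and 0.416 in CON, 0.485, 0.57, 0.49 and 0.484 in GF, and 0.433, 0.579, 0.548 and 0.475 in exGF. The groups overlapped, and the mean log2 ratio was higher by 0.18 in GF (exact permutation test, two-sided, p = 0.2, adjusted p = 0.686). That of Col4a1 to Col4a2 stayed within 0.647 to 0.946 and that of Col6a1 to Col6a2 within 2.24 to 5.53 over all 12 libraries. Further pairs were Col3a1 to Col5a2 (1.56 to 4.47), Col5a1 to Col5a2 (1.13 to 4.08), Col4a5 to Col4a6 (1.30 to 3.08), Col4a3 to Col4a4 (0.40 to 3.0) and Col9a1 to Col9a3 (0.0506 to 0.13). Of 24 exact permutation tests (8 pairs in 3 comparisons), none had a p under 0.05, and the smallest Benjamini-Hochberg adjusted p was 0.686. With 4 libraries against 4 the smallest p the test can give is 0.0286. After adjustment over the 24 tests, 1 pair alone at that p could not reach an adjusted p under 0.1. The ratio of no pair was shown to differ between groups, and the adjusted tests could not have shown it for a single pair.

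The other genes of the collagen pathway were read from the same fits. For the lists that follow, 48.3% of all genes tested were below 0 in GF. At an unadjusted edgeR p under 0.05, 3.94% of all genes were lower and 4.75% higher. EdgeR called 0.135% lower and 0.116% higher, and over all genes DESeq2 called 204 and limma-voom 47. The enzymes and chaperones of synthesis and folding had 12 of 17 genes below 0 in GF and a median log2 fold change of -0.09, and edgeR called 0 (2 lower and 1 higher at an unadjusted p under 0.05), DESeq2 1 and limma-voom 0. P3h4, a partner of the lysyl hydroxylation complex, was at 14.7, 14.2, 11.8 and 13.6 CPM in CON and 8.62, 8.50, 10.3 and 6.99 CPM in GF, a log2 difference of -0.66 (SE 0.14, adjusted p = 0.107 by edgeR). Serpinh1, the collagen chaperone HSP47, was at 22.4 ± 4.42, 17.1 ± 1.80 and 15.6 ± 2.32 CPM in CON, GF and exGF. Every GF library was below every CON library for P3h4, whereas for Serpinh1 the groups overlapped, and neither gene passed the edgeR test. P4ha3 of the same list went the other way, at 2.74 ± 0.362 CPM in CON and 4.22 ± 1.64 CPM in GF.

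Of the enzymes that remove propeptides and cross-link chains, 9 of 11 tested genes were below 0 in GF with a median of -0.19. Pcolce, the enhancer of the C-proteinase, was at 10.4 ± 2.06 CPM in CON and 6.72 ± 0.423 in GF (log2 -0.63, SE 0.15, adjusted p = 0.159 by edgeR), and Adamts2, the N-proteinase, at 9.56 ± 1.51 and 6.79 ± 1.68 CPM. The small proteoglycans and glycoproteins of fibrils had 12 of 13 tested genes below 0, with a median of -0.21. In this list Fbln1 was at 13.7 ± 1.49 and 9.66 ± 0.911 CPM (log2 -0.50, SE 0.13, adjusted p = 0.186 by edgeR) and Lum, lumican, at 3.10 ± 0.857 and 1.71 ± 0.544 CPM. In both lists edgeR and limma-voom called 0, with 3 and 4 genes lower at an unadjusted p under 0.05, and DESeq2 called Pcolce and Fbln1.

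The laminins, nidogens and heparan sulfate proteoglycans that share the basement membrane with type IV collagen were below 0 in GF for 15 of 15 genes, with a median of -0.24. EdgeR called 0 of them (5 lower at an unadjusted p under 0.05), limma-voom 0 and DESeq2 1. Lamc3, a laminin chain of the meningeal surface, was at 7.77 ± 0.969 CPM in CON and 5.32 ± 0.624 in GF (log2 -0.55, SE 0.15, adjusted p = 0.241 by edgeR), and Lamb1 at 24.1 ± 2.27 and 18.2 ± 2.88 CPM. In exGF 12 of 15 were below 0 (52.1% of all genes tested) with a median of -0.07.

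Collagen receptors had 5 of 9 tested genes below 0 in GF, with a median of -0.15. The endocytic receptor Mrc2 was at 11.4 ± 1.06 CPM in CON and 8.49 ± 1.48 in GF, and the receptor tyrosine kinase Ddr2 at 14.0 ± 3.65 and 9.46 ± 2.17. Of the proteases and their inhibitors 6 of 9 tested genes were below 0, with a median of -0.15. The gelatinase Mmp2 was at 3.49, 4.56, 3.99 and 3.54 CPM in CON and 2.16, 1.61, 1.93 and 3.08 CPM in GF (log2 -0.83, SE 0.22, adjusted p = 0.218 by edgeR), and its activator Mmp14 at 19.3 ± 2.25 and 14.3 ± 1.31 CPM. EdgeR and limma-voom called 0 in both lists (2 lower in each at an unadjusted p under 0.05), and DESeq2 called 0 and 2.

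In exGF relative to CON, genes below 0 were 11 of 17 for synthesis and folding, 8 of 12 for propeptide removal and cross-linking, 12 of 13 for the proteoglycans and glycoproteins of fibrils, 6 of 9 for receptors and 7 of 9 for proteases and inhibitors. EdgeR and limma-voom called 0 of these lists and of the basement membrane partners, with 11 genes lower and 1 higher over the 6 lists at an unadjusted edgeR p under 0.05, and DESeq2 called P3h4 and Adamts2 lower. Over all genes tested in exGF relative to CON, 52.1% were below 0, and 2.87% were lower and 2.46% higher at that p. DESeq2 called 60 genes in all. P3h4 was at 9.90, 6.56, 8.90 and 10.4 CPM in exGF, below every CON library. Between exGF and GF, edgeR, DESeq2 and limma-voom called 0 of the 6 lists, with 8 genes higher and 1 lower in exGF at an unadjusted edgeR p under 0.05. Over all genes, 3.3% were higher and 3.35% lower in exGF than in GF at that p. The basement membrane partners were above 0 in exGF relative to GF for 14 of 15 genes, against 48.7% of all genes tested.

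Most markers of the meninges were below 0 in both comparisons with CON. Of 14 markers of meningeal fibroblasts, 13 were below 0 in GF with a median of -0.45, 8 were lower at an unadjusted p under 0.05, and 1 was called by edgeR. Of all genes tested in GF, 48.3% were below 0, 3.94% were lower at that p and 0.135% were called lower. The called gene was Slc6a13, a GABA and taurine transporter of the leptomeninges, which fell from 24.6, 23.4, 17.9 and 18.0 CPM in CON to 10.3, 11.2, 9.83 and 12.3 CPM in GF (log2 -0.94, SE 0.13, adjusted p = 0.012 by edgeR). The count was 1 by limma-voom, 3 by DESeq2 (with Igf2 and Slc13a4), 4 with no filter on low counts (with Igf2, Ptgds and Slc13a4), 2 with the share of pairs aligned to several places as a covariate (with Igf2) and 3 without CON replicate 4 (with Ptgds and Slc13a4). Over all genes, limma-voom called 47, DESeq2 204 and the fit with no filter 221. With the covariate the number was 78, and without CON replicate 4 it was 53. In exGF 14 of 14 meningeal markers were below 0 with a median of -0.45, and 0 were called by edgeR (8 lower at an unadjusted p under 0.05), 0 by limma-voom and 1 by DESeq2. Of all genes tested in exGF, 52.1% were below 0 and 2.87% were lower at that p. The tested fibrillar genes had a median of 0.04 in exGF and were split, with 5 of 10 below 0. At that p 3 of them (Col1a2, Col3a1 and Col5a2) were lower and 0 higher. The lists were not compared by a test. The 14 markers summed to 927 to 1630, 861 to 1030 and 690 to 1100 CPM in CON, GF and exGF, and none was at 0 in every library. Ptgds alone gave 78.2 to 85.9% of the sum in each library, and without it the other 13 markers summed to 198 to 280, 143 to 186 and 151 to 203 CPM. Their part in the lower levels of Col1a2 and the other fibrillar chains was not tested.

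Markers of vessel cells were read in the same way. The 12 endothelial markers had a median log2 fold change of -0.01 in GF (6 of 12 below 0) and 0.08 in exGF (3 of 12 below 0) and summed to 392 to 458, 439 to 464 and 443 to 482 CPM in CON, GF and exGF. The 10 markers of mural cells had medians of -0.11 (8 of 10 below 0) and -0.04 (6 of 10 below 0) and summed to 269 to 326, 280 to 301 and 277 to 319 CPM. Neither list had a gene called by edgeR, DESeq2 or limma-voom, with 2 endothelial markers higher and 2 lower and 1 mural marker lower in GF at an unadjusted edgeR p under 0.05. At that p, 4.75% of all genes tested in GF were higher and 3.94% lower. Below 0 were 48.3% of all genes in GF and 52.1% in exGF. Among the mature oligodendrocyte markers, by contrast with the vessel lists, 7 of 10 were called higher in GF by edgeR, against 0.116% of all genes tested. The summed level of these 10 markers was 2190 to 2690 CPM in CON and 3400 to 5710 CPM in GF. Their part in the collagen values, which are shares of each library's total, was not tested.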

How the data were processed

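RNA from medial PFC was sequenced in 12 libraries of pooled RNA, 4 per group (CON, GF, exGF). According to the submitters' processing notes and the study's methods, paired reads were trimmed (Trimmomatic 0.32) and mapped to GRCm38.p3 (STAR, 2.3.1u in the notes), and the authors obtained pairs per Ensembl gene with HTSeq 0.6.0, ignoring strand. The authors deposited raw counts per gene, without normalization, and these were used as they stand. Rows at the end of the table that name no gene were left out of library sizes and tests. Pairs outside genes made up 4.57% to 7.31% of a library, pairs on more than 1 gene 1.1% to 1.32%, and pairs with several alignments 13% to 19.2%. CON and GF columns carry replicate numbers, and the columns GFR1 to GFR4 were taken as the exGF group.

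Each pair of groups was fitted with edgeR 4.0.16 (R 4.3.3) on all genes that passed filterByExpr, with TMM normalization, glmQLFit and glmQLFTest, and Benjamini-Hochberg adjustment. Genes were called at an adjusted p under 0.1. Levels are CPM with TMM factors over the 12 libraries, also per kilobase of GENCODE exons (GRCm38). Names were found for 40340 of 41388 rows. The spread between pools, not depth, set the precision, except for genes with few counts. Nothing in the labels says which animals were in which pool, so p-values measure the spread between pools.

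Full values are given for collagen genes called and for those whose groups did not overlap at an unadjusted p under 0.05. They are also given for the most abundant basement membrane gene and other gene per kilobase. For Col11a2, the highest fibrillar gene per kilobase of merged exons, group means are given. Partner chains have full values (Col1a1, Col4a1 and Col6a2) or only summary levels, such as Col4a6, Col9a3 and Col11a1. Of the other lists, called genes and at most 2 with the lowest p are named. Col4a4, Col5a2, Col8a2 and others shown beside them were chosen after their values were seen. The members and the lists were chosen with earlier results of these data known. Alternatives were RLE size factors, no filter, at least 10 counts in every library, DESeq2 1.42.0, limma-voom (limma 3.58.1), 1 fit of 12 libraries, a threshold of 0.05, each library left out, and the replicate number as a block. The share of pairs aligned to several places as a covariate, and the transcript length, were chosen after seeing the data. Of the fits, the edgeR fit of GF against CON was tested on simulated counts. Sequences are from RefSeq promoter windows and GENCODE transcripts.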

Additional observations from a re-analysis of the deposited data

How the results depend on the processing

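The precision is that of 4 pools per group, and a gene with few counts, such as Col4a3 or Col6a5, has a wide error. Of the collagen genes called in GF (1 in the main analysis), RLE size factors, DESeq2 and the share of pairs aligned to several places as covariate gave 2, testing without a filter gave 4 (Col1a1, Col1a2, Col6a1 and Col23a1), and leaving out a library gave 1 to 2. In exGF DESeq2 called 1 in place of 0. The collagen genes below 0 in exGF relative to GF were 4, and 10 with the covariate and 3 to 10 with a library left out. Over all genes, the number called in GF was 39, and 221 without a filter, 204 by DESeq2, 78 with the covariate and 27 to 60 with a library left out. In exGF it was 11, and 48 without a filter and 60 by DESeq2. Between exGF and GF it was 0, and 32 without a filter and 21 by DESeq2.

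Signs that turned belonged to values that passed no test. The log2 fold change of Col4a2 in exGF (0.05) was -0.045 with the covariate and -0.086 to 0.22 with a library left out, and that of Col6a1 (-0.07) was -0.23 to 0.19. Log2 ratios with a library left out ran from -0.067 to 0.073 for Col1a1 to Col1a2 between exGF and GF, from -0.015 to 0.12 for Col4a1 to Col4a2 in exGF relative to CON and from -0.13 to 0.050 relative to GF, and from -0.17 to 0.10 for Col6a1 to Col6a2 in GF. The replicate number as a block left 1 collagen gene called in GF (Col1a2, adjusted p = 0.0774 by edgeR with the replicate block) and 32 below 0, and over all genes called 51. The numbers do not pair the libraries by the labels, the correlation of deviations of same-numbered CON and GF libraries was -0.121 to 0.0649, and not every library correlated best with its own number. The cause of these movements was not tested.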
